A study of Mus musculus with 2 samples.

Results

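Interferon-γ (IFN-γ) is the cytokine that activated T and natural killer (NK) cells release, and 7 genes that carry it and its signal were followed here by symbol: *Ifng*, the receptor chain genes *Ifngr1* and *Ifngr2*, the kinase genes *Jak1* and *Jak2*, and the response genes *Irf1* and *Socs1*. They are 7 of the 32589 genes listed, and each had UMIs in both libraries. Unique molecular identifiers (UMIs) were counted in cells that had from 500 to 5000 genes detected and no more than 10% of UMIs from mitochondrial genes, and were summed per library and cell class. A class is a marker gate, in which a cell joins the class with the most detected of 6 marker genes if it has at least 2 of them and no tie.

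The tissue was mouse cholangiocarcinoma, induced by hydrodynamic tail vein injection of NICD and myr-AKT. Both groups carried the shYT genotype, with doxycycline-inducible shRNAs against *Yap* and *Taz* that the CAG-rtTA3 driver expresses in all tissues. These shRNAs were switched on at day 25, and immune cells carried them as well as tumor cells. The shYT, PBS group received PBS and the shYT, anti–PD-1 group received the mouse PD-1 antibody clone RMP1-14 on days 26, 29 and 32, and livers were taken at day 33. Each group is 1 library, and the labels give neither the shRNA line nor the sex or age of the mice. The study describes several animals per group, and barcodes are not tied to animals. A library without the knockdown was not analysed here.

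With 1 library per group, no difference below was tested against replicates. Intervals are exact, at the 95% level, and cover counting error only. The libraries held 19397 and 19451 barcodes (219 sequences occurred in both) and 121713441 and 100807037 UMIs, of which 15531 and 16360 cells were kept, with medians of 3159 and 2990 UMIs. *Xist* had 18452 UMIs with PBS and 11 with anti–PD-1, whereas Y-linked genes had 3113 and 15323, so the libraries differed in the sex of their cells as well as in treatment, and sex, animal, library and antibody cannot be told apart. A gate for acinar cells held 0 and 47 cells, and 12.0% and 15.7% of cells joined no gate.

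IFN-γ binds a receptor of an IFNGR1 and an IFNGR2 chain. The chains bring together the kinases JAK1 and JAK2, and the signal then reaches the gamma-activated site (GAS) of target genes. *Irf1* encodes a transcription factor that is an early target and passes the response on to genes with an interferon-stimulated response element (ISRE). *Socs1* encodes the feedback inhibitor that binds the kinases. In tumors, IFN-γ is known for raising antigen presentation and the chemokines CXCL9 and CXCL10.

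The promoters of the response genes are shown because GAS and ISRE letters are the sites through which interferon acts on target genes. In the 250 bases before each start (RefSeq, GRCm38.p6), the GAS letters TTCNNNGAA, the same on both strands, occurred in 2 of the 7 genes, *Irf1* and *Ifng*, and in 7.02% of 32851 promoters. ISRE-like letters (GAAA, any 2 bases and GAAA, or on the other strand TTTC, any 2 bases and TTTC) occurred in 1 of the 7, *Socs1*, and in 2.98% of promoters. Capitals mark the GAS of *Irf1* (TTCCCCGAA, 90 to 82 bases before the start, chr11:53769764-53770013, forward strand) and the pair of overlapping ISRE-like matches of *Socs1* (GAAAGAGAAA and GAAACCGAAA, from 83 to 68 bases before the start, chr16:10785537-10785786, reverse strand).
Irf1: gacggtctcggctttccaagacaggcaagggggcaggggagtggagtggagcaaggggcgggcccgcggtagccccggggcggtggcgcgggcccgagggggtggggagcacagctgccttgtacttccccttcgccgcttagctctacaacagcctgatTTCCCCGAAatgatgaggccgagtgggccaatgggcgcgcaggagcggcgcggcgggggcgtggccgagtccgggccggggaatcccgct
Socs1: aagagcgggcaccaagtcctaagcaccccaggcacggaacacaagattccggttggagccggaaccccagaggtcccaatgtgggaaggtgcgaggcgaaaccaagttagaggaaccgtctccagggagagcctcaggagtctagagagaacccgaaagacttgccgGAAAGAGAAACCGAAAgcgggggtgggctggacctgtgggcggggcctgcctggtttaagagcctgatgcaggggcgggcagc
The match of *Ifng*, TTCAGAGAA, lay 249 to 241 bases before its start. The window of a second listed start of *Irf1* (chr11:53770223-53770472) held neither set of letters. A gene was counted if any of its starts had a match, whereas the percentages are of single promoters. These matches describe the letters of the window, and binding was not measured. The promoters of *Ifngr1*, *Ifngr2*, *Jak1* and *Jak2* held neither set of letters in this window.

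The genes lie, in mm10 coordinates of GENCODE vM21, at chr10:118441046-118445892 (*Ifng*), chr10:19591949-19610229 (*Ifngr1*), chr16:91547072-91565623 (*Ifngr2*), chr4:101152367-101265282 (*Jak1*), chr19:29251828-29313080 (*Jak2*), chr11:53770014-53778374 (*Irf1*) and chr16:10782240-10785536 (*Socs1*). *Ifng*, *Jak1* and *Irf1* share positions with other annotated genes (*Gm49751*; *Raver2*, *Gm24468* and *Gm12785*; *Gm17334*). How counting treated overlaps and strand is not given in the sources used here, so reads from shared stretches are uncertain.

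*Irf1* was higher with anti–PD-1 in all 8 main cell classes, those of 200 or more cells per library. The counting interval of the log2 ratio lay above 0 in 6 of them for *Ifng* and in 4 for *Socs1*, which lay below 0 in T cells. *Ifngr1*, *Ifngr2* and *Jak2* had intervals on both sides of 0, and *Jak1* lay below 0 in 5 classes and above it in 0. A gene counted as 2-fold higher or lower by its ratio of UMIs per 1000000 UMIs of the class (CPM), anti–PD-1 over PBS, and as measured with at least 30 UMIs over both libraries. In the 8 main classes, 55 pairs of member and class were measured. Of these, 15 were at least 2-fold higher and 0 were at least 2-fold lower. The count was 7 higher and 1 lower with a stricter gate (at least 3 own markers and at most 1 of another class), and 9 higher and 1 lower when cells with like numbers of stress genes were compared. It was 14 higher and 2 lower in cells that held a Y-linked but no *Xist* transcript. The stricter gate kept 5 and 45 Kupffer cells and 30 and 25 monocytes. The numbers of pairs measured and the shares of all genes past 2-fold are not given here for these settings. Their counts can therefore not be read against 15 of 55 as fewer or more calls.

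*Ifng*, *Irf1* and *Socs1* passed 2-fold together in Kupffer cells, macrophages, monocytes and tumor and biliary cells. The *Ifng* level of each of these classes was below that of neutrophils in the same library. With anti–PD-1, from 73.9% (tumor and biliary cells) to 85.1% (Kupffer cells) of their *Ifng* UMIs were in cells that also held a T or NK marker UMI. The tumor and biliary calls of *Ifng*, from 19 and 23 UMIs, and of *Socs1*, with a ratio of 2.00, were not kept under all alternatives. The log2 ratio of *Ifng* there was -0.24 after thinning and -0.09 with equal stress strata, and that of *Socs1* was 0.16 with the stricter gate. In these 4 classes, 5.72%, 5.04%, 5.16% and 5.76% of all measured genes were at least 2-fold higher, and 2.62%, 6.55%, 5.57% and 5.81% at least 2-fold lower. *Ifng* alone passed in T cells, where 3.07% of genes were 2-fold higher and 7.86% lower, and in NK cells, with 3.88% and 5.77%. The T cell call was lost when the 3 cells highest in *Ifng* were left out of each library (ratio 1.86, 1.72 to 2.01). Within T cells, *Ifng* was also the only member past 2-fold in CD8 T cells (3.52% of genes higher and 5.89% lower). *Irf1* alone passed in neutrophils (4.11% higher and 12.3% lower), and in B cells no member did (3.21% and 6.41%). The median log2 ratio of all measured genes was slightly below 0 in each of these classes, from -0.33 in neutrophils to -0.05 in tumor and biliary cells.

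**Figure D1:**
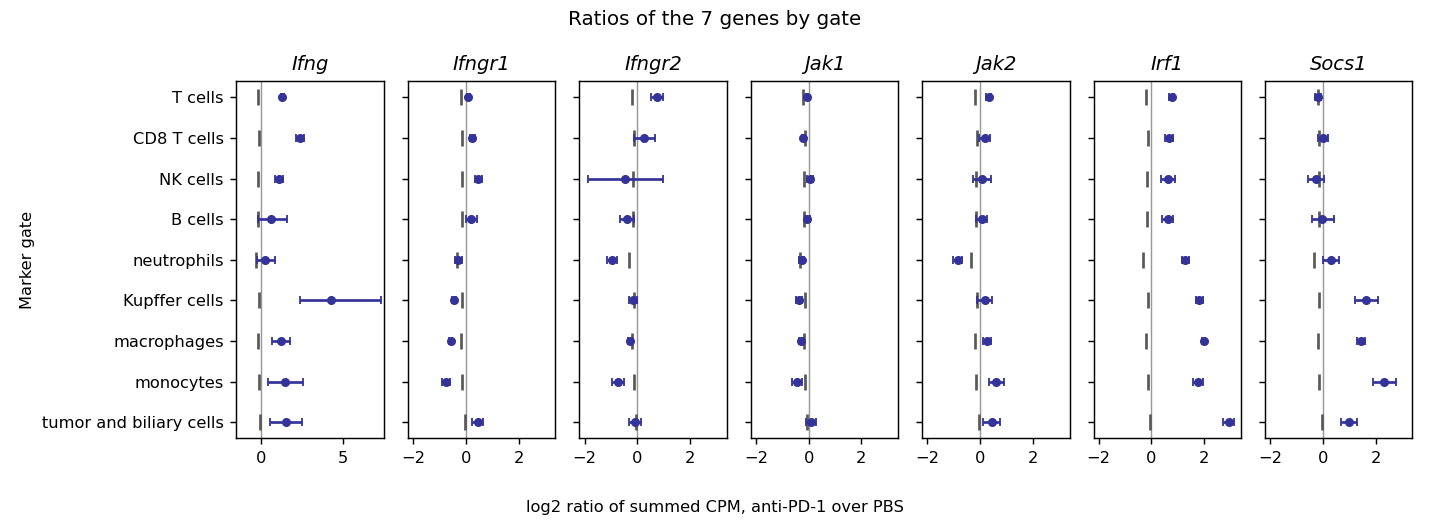
Log2 ratio of CPM, anti–PD-1 over PBS, for each of the 7 genes (panels) in each marker gate (rows), with 95% counting intervals as bars and the median of all measured genes as a grey tick. The *Ifng* panel has a wider axis than the others, and *Irf1* lies above 0 in all 8 main classes, whereas *Ifngr1* and *Ifngr2* lie on both sides of 0.

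*Ifng* transcripts were found mainly in T and NK cells in both libraries. All kept cells held 1483 *Ifng* UMIs with PBS and 5205 with anti–PD-1, which is 18.8 and 67.0 CPM, a ratio of 3.57 (3.37 to 3.79). T and NK cells were 24.4% and 25.2% of cells and held 75.5% (73.3 to 77.7) and 76.3% (75.1 to 77.5) of the *Ifng* UMIs. They held 15.5% and 23.0% of the UMIs of all genes, so the ratio of 3.57 mixes cell make-up with levels within classes. With these gates the share of *Ifng* UMIs was alike while the total differed. It was 72.6% and 64.1% after each cell was thinned to 1000 UMIs and the gates were redrawn on the thinned counts. With the stricter gate, which kept 966 of the 3637 anti–PD-1 T cells, it was 30% and 8.63%. The likeness of the shares thus depends on the processing. Ungated cells held 12.7% and 14.9% of the transcripts.

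NK cells had the highest *Ifng* level in each library. Their level was 194 CPM (169 to 223; 208 UMIs in 401 cells) with PBS and 411 CPM (382 to 442; 745 UMIs in 480 cells) with anti–PD-1, a ratio of 2.11 (1.81 to 2.48). T cells came next, with 81.3 CPM (76.2 to 86.8) and 201 CPM (194 to 208), a ratio of 2.47 (2.29 to 2.66). The intervals of these classes did not overlap with each other or with the neutrophils that followed. Neutrophils are not a usual source of *Ifng*, and their 15.0 and 18.1 CPM (ratio 1.21, 0.828 to 1.80) were taken as the level to read other classes against. In the anti–PD-1 library, 27.1% of the neutrophil *Ifng* UMIs were in cells with 10 or more (0.0975% of neutrophils). The part of free RNA and doublets in the neutrophil level was not tested.

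Below neutrophils, neighboring classes in the order of *Ifng* levels had overlapping intervals. B cells had 6.71 and 10.4 CPM. Kupffer cells, the resident macrophages of the liver, held 2 *Ifng* UMIs in 457 cells with PBS and 114 in 1358 cells with anti–PD-1, which is 0.604 and 11.5 CPM (ratio 19.1, 5.16 to 159.5). Macrophages had 2.04 and 4.71 CPM, monocytes 4.65 and 12.8 CPM, and tumor and biliary cells 2.84 and 8.10 CPM. All these levels were below that of neutrophils in the same library. In the anti–PD-1 Kupffer gate, 85.1% of the *Ifng* UMIs were in the 48.7% of cells that also held a UMI of a T or NK marker. In anti–PD-1 neutrophils, 81.4% were in the 32.6% of cells with such a UMI.

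Shares of cells gave the same order of NK cells, T cells and neutrophils. Each cell was thinned to 1000 UMIs, because T cells held more UMIs with anti–PD-1 (medians of 2725 and 3604 per cell). In thinned NK cells, an *Ifng* UMI was found in 14.4% (11.1 to 18.3) with PBS and 22.0% with anti–PD-1. In T cells it was 6.52% (5.71 to 7.42) and 9.43%, against 0.870% and 1.09% of neutrophils with median depths of 1587 and 2114 UMIs. Without thinning, the share of NK cells was 26.9% and 43.1% and that of T cells 15.3% and 21.1%. Thinned shares of B cells (0.534% and 0.796%), macrophages (0.379% and 0.666%) and tumor and biliary cells (0.499% and 0.617%) were below the neutrophil shares. With anti–PD-1, those of Kupffer cells (0.235% and 1.52%) and monocytes (0.235% and 2.22%) were above the neutrophil share, with overlapping intervals.

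Within T cells, gates were set by *Cd4*, *Cd8a* or *Cd8b1*, *Foxp3* and *Trdc*. With all cells kept, including a few very high ones, *Ifng* CPM differed most between libraries in CD8 T cells, the cytotoxic subset. Their level was 53.5 CPM (46.0 to 61.8; 183 UMIs in 979 cells) with PBS and 278 CPM (266 to 291; 1978 UMIs in 1381 cells) with anti–PD-1, a ratio of 5.20 (4.47 to 6.09). CD4 T cells, the helper subset, had 127 CPM (113 to 141) and 124 CPM (113 to 137), a ratio of 0.982 (0.848 to 1.14). The CD8 level was thus below the CD4 level with PBS and above it with anti–PD-1, beyond counting error in each library. The CD8 gate held 12.3% and 38.0% of all *Ifng* UMIs, and 4.33% and 9.15% of the UMIs of all genes. The CD4 gate held 21.6% and 8.24% of *Ifng* UMIs (320 and 429), and 3.20% and 4.44% of the UMIs of all genes.

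The remaining T cell gates were smaller or mixed. γδ T cells had 72.1 and 269.8 CPM (19 and 84 UMIs in 88 and 86 cells; ratio 3.74, 2.26 to 6.53). Regulatory T cells, which restrain other T cells, had the lowest level of the T gates, 25.8 and 19.3 CPM (28 and 23 UMIs; ratio 0.749, 0.412 to 1.35). The rest of the T cells had no UMI of these genes, or had *Cd4* together with *Cd8a* or *Cd8b1* UMIs. They had 92.6 and 177 CPM (ratio 1.91, 1.68 to 2.17). Thinned shares were 4.75% (3.50 to 6.29) and 8.38% (6.96 to 9.98) in CD8, 8.97% and 9.75% in CD4, 5.75% and 14.0% in γδ, and 2.87% and 1.27% in regulatory T cells. The CD8 and CD4 shares with anti–PD-1 were close, unlike their CPM, and by share the γδ difference was larger than the CD8 difference, from few γδ cells.

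**Figure D2:**
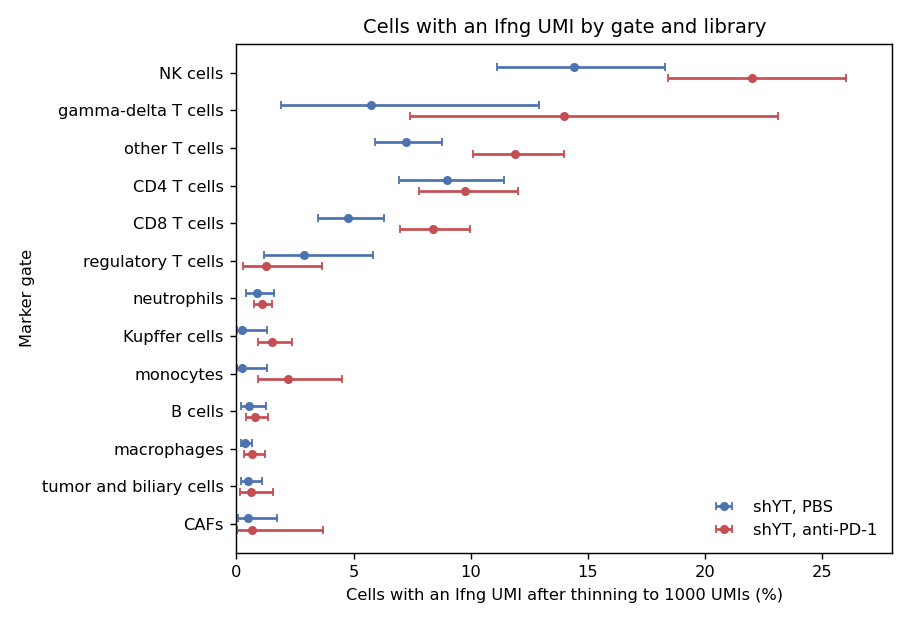
Percent of cells with an *Ifng* UMI after thinning each cell to 1000 UMIs, by marker gate and library, with exact binomial 95% intervals. NK cells have the highest share in each library (14.4% and 22.0%), and neutrophils stand at 0.870% and 1.09%.

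A small number of CD8 T cells held most of the *Ifng* UMIs with anti–PD-1. With PBS, 128 of 979 CD8 T cells had an *Ifng* UMI and the highest had 10. With anti–PD-1, 312 of 1381 had a UMI, and 24 cells (1.74%) with 10 or more held 67.4% of the gate's *Ifng* UMIs. The cell with most *Ifng* held 620 UMIs, 3.13% of its 19831 UMIs, with 13 *Cd8a*, 453 *Ccl4* and 1001 *Xcl1* UMIs. NK cells showed a like tail, with 2 cells of 10 or more and a maximum of 11 UMIs with PBS and 16 cells (3.33%) and a maximum of 44 with anti–PD-1. In CD4 T cells, 3 and 2 cells reached 10 UMIs, and the maxima were 14 and 19.

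Leaving out the highest cell of each library took the CD8 levels to 50.7 and 192 CPM (ratio 3.78, 3.23 to 4.46). Without the highest 3 they were 47.2 and 149.8 CPM (ratio 3.17, 2.68 to 3.77). The γδ ratio of 3.74 had no cell left out, so it cannot be ranked against these values. With anti–PD-1, 2 γδ T cells held 42.9% of the *Ifng* UMIs of their gate. Under the same removals the ratio of all T cells was 2.04 (1.89 to 2.20) and 1.86 (1.72 to 2.01), so it fell below 2 without the highest 3. The NK ratio was then 2.10 and 2.08, and the CD4 ratio 0.976 and 1.00. The CD8 level with anti–PD-1 stayed above the CD4 level of 114 CPM when 3 cells were left out of each gate. Thinning gives each cell the same weight. With the gates also redrawn on the thinned counts, 680 and 922 CD8 T cells held 56 and 163 *Ifng* UMIs. The log2 ratio was then 1.10 (0.66 to 1.57) in place of 2.38 (2.16 to 2.61), which combines thinning with the change of gate.

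The comparison was repeated in cells that held a Y-linked but no *Xist* transcript, which left 80 and 800 CD8 T cells, 367 and 935 macrophages and 81 and 254 tumor and biliary cells. The log2 ratio of *Ifng* was 3.20 (2.15 to 4.52; 7 and 1077 UMIs) in CD8 T cells, 1.18 (0.65 to 1.77) in NK cells and 0.43 (-0.17 to 1.10) in CD4 T cells. *Irf1* had 2.30 (2.10 to 2.51) in macrophages and 2.92 (2.33 to 3.57) in tumor and biliary cells, and *Socs1* had -0.43 (-0.65 to -0.19) in T cells. These 6 directions were those of all cells except for *Ifng* in CD4 T cells, whose intervals included 0 both ways. Of the receptor genes, *Ifngr1* in neutrophils (0.06) and CD8 T cells (-0.16) and *Ifngr2* in Kupffer cells (0.04) had the opposite sign in these cells, as did *Ifng* in neutrophils (-1.30, -2.31 to -0.12; 9 and 73 UMIs).

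**Figure D3:**
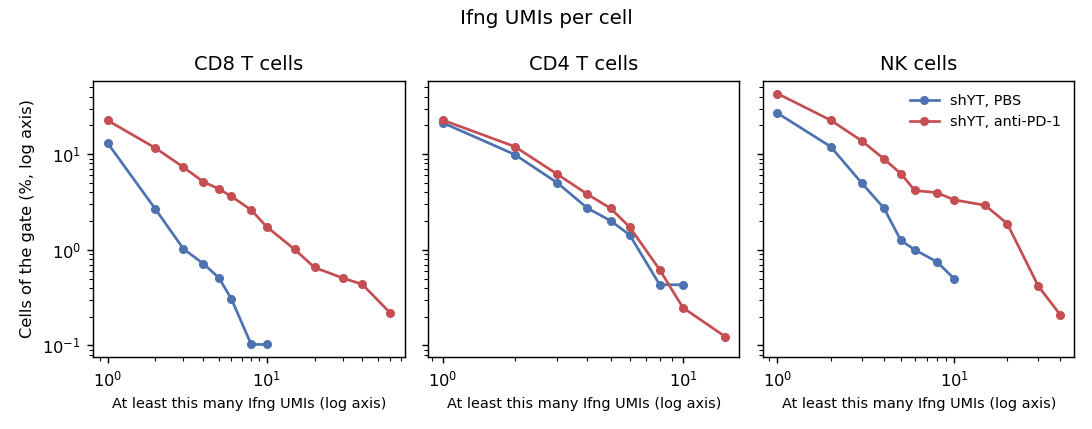
Percent of cells in a gate (log axis) with at least a given number of *Ifng* UMIs (log axis, up to 60), for CD8 T, CD4 T and NK cells and both libraries. The PBS lines end at 10 UMIs, whereas 3 anti–PD-1 CD8 T cells reach 60 or more.

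Thinned CD8 T cells with an *Ifng* UMI (46 with PBS and 114 with anti–PD-1) differed from the other CD8 T cells in effector genes. Of 20 genes of the activation and effector list, 15 with PBS and 16 with anti–PD-1 were found in a larger share of *Ifng*-positive cells, with intervals apart for 7 and 10, and 5 and 4 in a smaller share, with intervals apart for 2 and 3. In CD4 T and NK cells, intervals were apart for 0 genes with PBS. With anti–PD-1 they were apart for 3 higher and 3 lower in CD4 T cells, and for 1 higher in NK cells. The genes named here, all in CD8 T cells, were picked from that list after their values were seen. Cells of 1 library are not replicates. *Gzmb*, which encodes a cytotoxic granule protease, was found in 54.3% of *Ifng*-positive and 18.2% of *Ifng*-negative cells with PBS, and in 39.5% and 22.9% with anti–PD-1. The chemokine gene *Ccl4* was found in 52.2% and 16.2%, and in 42.1% and 21.1%. *Tcf7*, which marks naive and memory-like T cells, went the other way, with 4.35% and 20.6% with PBS and 10.5% and 21.4% with anti–PD-1. The homing receptor gene *Ccr7* was found in 3.51% of *Ifng*-positive and 23.6% of negative cells with anti–PD-1. *Ifngr1* itself was found in 17.4% and 32.3% with PBS, and in 43.0% and 38.0% with anti–PD-1.

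Few genes that drive *Ifng* expression passed 2-fold in T cells taken as 1 class, and more did in gates within them. The list held 14 measured genes for inducing cytokines, their receptors and transcription factors. Of these, 1 was at least 2-fold higher and 0 lower in T cells (median log2 ratio 0.05, against -0.20 for all genes). The 1 gene was *Il12b*, with 0 and 42 UMIs, of which 0 and 37 were in the CD4 gate. RNA of myeloid cells, mature dendritic cells and B cells was also higher in that gate, as given below with *Ifngr2*. Its part in the *Il12b* UMIs was not tested. In CD8 T cells, 3 of 12 were higher. They were the homeobox gene *Hlx* (5 and 26 UMIs; ratio 2.50, 0.946 to 8.35), the cytokine gene *Il15* (8 and 35 UMIs; ratio 2.11, 0.960 to 5.26) and *Il12rb2*, a chain of the interleukin-12 receptor, with 12.9 and 25.9 CPM (ratio 2.01, 1.44 to 2.86), of which the interval of *Il12rb2* alone excluded 1. *Il2*, a T cell growth factor gene, had the lowest ratio, with 21 and 22 UMIs (0.504, 0.265 to 0.964). *Eomes*, a T-box factor of effector and memory cells, had 98.2 and 60.4 CPM there (ratio 0.615, 0.532 to 0.711), and 125 and 199.7 CPM in NK cells (ratio 1.59, 1.30 to 1.96). In NK cells, 0 of 10 measured list genes were at least 2-fold higher and 1 was lower, *Il2*, with 29 and 9 UMIs (ratio 0.183, 0.0763 to 0.397). In CD4 T cells, 3 of 13 measured list genes were at least 2-fold higher and 1 was lower. *Eomes* had 9 and 42 UMIs in them (ratio 3.42, 1.64 to 7.99). The cytokine gene *Il21* had 56 and 28 UMIs (ratio 0.366, 0.224 to 0.587). Macrophages had the inducing cytokine genes *Il12b* at 0.970 and 12.8 CPM (29 and 177 UMIs; ratio 13.2, 8.89 to 20.3) and *Il27* at 5.12 and 22.2 CPM (ratio 4.35, 3.57 to 5.31), and 3 of their 13 measured list genes were 2-fold higher. In monocytes *Il27* had 4.65 and 50.3 CPM (ratio 10.8, 6.05 to 21.0).

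The receptor chains were spread differently over the classes. *Ifngr1*, the ligand-binding chain, was highest in NK cells in both libraries when T cells were taken as 1 class, with 617 CPM (571 to 666) and 850.3 CPM (808 to 894), a ratio of 1.38 (1.26 to 1.51), and with PBS its interval overlapped that of cDC1, the cross-presenting dendritic cells (524 CPM). *Ifngr2*, the signaling chain, was lowest in NK cells, with 9 and 11 UMIs or 8.41 (3.85 to 16.0) and 6.07 CPM (3.03 to 10.9), next to plasma cells with overlapping intervals. T cells had *Ifngr1* at 485 and 516 CPM and *Ifngr2* at 21.9 (19.3 to 24.9) and 37.1 CPM (34.2 to 40.2). The lymphocytes with most *Ifng* thus ranked high for one chain and low for the other.

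Myeloid classes had lower *Ifngr1* with anti–PD-1, except that the log2 ratio in neutrophils was 0.04 with scaling by the median of ratios and 0.06 in cells that held a Y-linked but no *Xist* transcript. Monocytes had 474 and 283 CPM (ratio 0.598, 0.541 to 0.660), macrophages 311 and 210.2 CPM (ratio 0.675, 0.647 to 0.704), Kupffer cells 401 and 293 CPM (ratio 0.732) and neutrophils 257 and 209.5 CPM (ratio 0.817). In tumor and biliary cells the level was 80.1 CPM (73.4 to 87.1) and 109.9 CPM (98.0 to 123), a ratio of 1.37 (1.19 to 1.58). The interval of the ratio was above 1 in T, NK and tumor and biliary cells, below 1 in the myeloid classes named, and spanned 1 in B cells (114 and 132 CPM). The direction was lost in tumor and biliary cells with the stricter gate (log2 ratio -0.02, -0.72 to 0.63) and in T cells with equal stress strata (-0.01), which also left tumor and biliary cells at 0.02. Summed over all kept cells, *Ifngr1* was at 311 and 309 CPM. Among T gates it was highest in γδ (724 and 832 CPM) and regulatory T cells (693 and 774 CPM), which with PBS stood above NK cells with overlapping intervals, and lowest in CD4 T cells (277 and 355 CPM).

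*Ifngr2* was highest in monocytes with PBS (204 CPM) and in macrophages with anti–PD-1 (147 CPM). Neutrophils had 158 and 80.5 CPM (ratio 0.510, 0.448 to 0.582), monocytes 204 and 122 CPM (ratio 0.599), macrophages 177 and 147 CPM (ratio 0.829) and B cells 81.4 and 62.5 CPM (ratio 0.767). Tumor and biliary cells differed by less than counting error, with 83.3 and 78.2 CPM (ratio 0.938, 0.799 to 1.10). CD4 T cells had 35 and 190 UMIs, 13.8 CPM (9.64 to 19.2) and 55.1 CPM (47.5 to 63.5), a ratio of 3.98 (2.76 to 5.88). RNA of myeloid and B cells was also higher in the CD4 gate. There 6 macrophage markers summed to 319 and 546 CPM, those of monocytes to 278 and 422, of Kupffer cells to 129 and 324, of neutrophils to 335 and 549.9, of mature dendritic cells to 106 and 378 and of B cells to 25.3 and 99.7 CPM, with all 6 of each list detected in both libraries, against 5987 and 5907 CPM for 6 T cell markers. Their part in the *Ifngr2* difference was not tested. CD8 T cells had 22.5 and 27.2 CPM, with overlapping intervals.

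**Figure D4:**
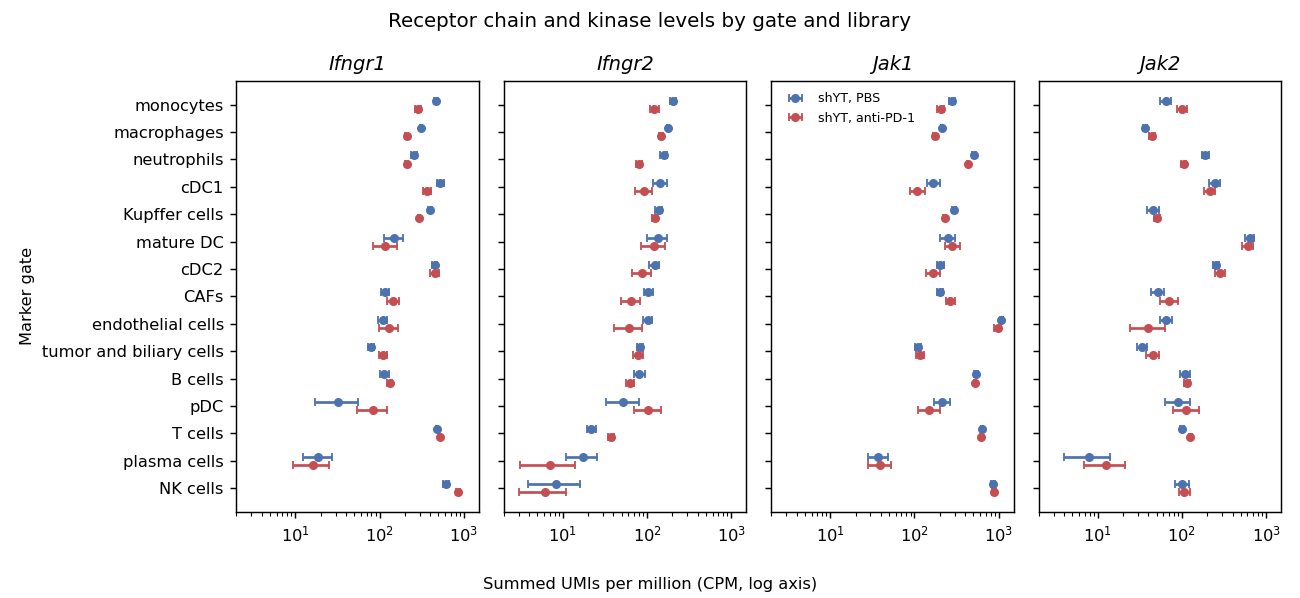
Level of *Ifngr1*, *Ifngr2*, *Jak1* and *Jak2* (CPM, log axis) by marker gate and library, with exact Poisson 95% intervals, in gates with at least 50 cells in each library. The gates within T cells are not drawn, and of the gates drawn NK cells are the highest for *Ifngr1* (617 and 850.3) and the lowest for *Ifngr2* (8.41 and 6.07).

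*Jak1*, whose kinase pairs with IFNGR1 and with many other cytokine receptors, was highest in endothelial cells (1074 and 970.2 CPM) and NK cells (857 and 879.5 CPM). Plasma cells were lowest, with 37.3 and 39.1 CPM, and tumor and biliary cells had 109 and 117 CPM. Its ratio was below 1 in 5 of the 8 main classes and spanned 1 in the other 3, with 637 and 614 CPM in T cells (ratio 0.963) and 279 and 206 CPM in monocytes (ratio 0.737; log2 ratio 0.03 with equal stress strata). The T cell and neutrophil ratios lay on the other side of 1 when libraries were scaled by the median of ratios (log2 0.14 and 0.07). *Jak2*, whose kinase pairs with IFNGR2, was highest in mature dendritic cells, with 635 CPM (559 to 719) and 603 CPM (523 to 692). The conventional dendritic cells cDC2 and cDC1 followed, with 256 and 283 CPM and 245 and 214 CPM.

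*Jak2* was lower with anti–PD-1 in neutrophils, at 188 and 105 CPM (ratio 0.560, 0.498 to 0.630). It was higher in monocytes, at 64.7 and 99.6 CPM (ratio 1.54, 1.25 to 1.89), in T cells, at 100.1 and 126 CPM (ratio 1.25), and in tumor and biliary cells, at 33.3 and 45.1 CPM (ratio 1.35), where the log2 ratio was -0.71 (-2.08 to 0.42; 63 and 7 UMIs) with the stricter gate. In NK, B and Kupffer cells its interval spanned a ratio of 1. Neutrophils thus had lower CPM of both receptor chains and both kinases with anti–PD-1, but the median log2 ratio of all their genes was -0.33, and *Ifngr1* and *Jak1* were at 0.04 and 0.07 with scaling by the median of ratios.

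*Irf1* was higher with anti–PD-1 in all 8 main classes, and its intervals did not overlap between libraries in any of them. Tumor and biliary cells had 227 UMIs in 1396 cells and 735 UMIs in 851 cells, 33.9 CPM (29.6 to 38.6) and 259 CPM (240.4 to 278), a ratio of 7.63 (6.57 to 8.90). In the order of 15 gates by *Irf1* level they stood at place 13 with PBS, with an interval overlapping that of CAFs, and at place 7 with anti–PD-1, with an interval overlapping that of NK cells. Macrophages had 80.1 and 315 CPM (ratio 3.93, 3.74 to 4.14), Kupffer cells 134 and 476 CPM (ratio 3.54), monocytes 107 and 362 CPM (ratio 3.38) and neutrophils 203 and 496 CPM (ratio 2.44, 2.22 to 2.69). Lymphocytes had smaller ratios, with 133 and 227 CPM in T cells (ratio 1.71), 163 and 251 CPM in NK cells (ratio 1.54) and 112 and 171 CPM in B cells (ratio 1.53).

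Smaller stromal gates had *Irf1* ratios like that of macrophages. CAFs had 31.7 and 124 CPM and endothelial cells 81.1 and 323 CPM (ratios 3.92 and 3.98). In CAFs, 12 of 14 genes of the stress response to tissue dissociation were also at least 2-fold higher (median log2 ratio 2.13). The part of that stress in the CAF difference was not tested. After thinning, an *Irf1* UMI was found in 3.99% (2.96 to 5.26) and 15.9% of tumor and biliary cells and in 8.60% and 24.7% of macrophages. Tumor and biliary cells had the largest *Irf1* ratio of the 8 main classes, but not when stress strata were weighted equally (log2 ratio 1.29, against 1.63 in macrophages and 2.15 in monocytes). The strata behind the tumor value had wide counting intervals, given below, and the order under equal weights was not tested.

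*Socs1* was higher with anti–PD-1 in monocytes, Kupffer cells, macrophages and tumor and biliary cells, and was not higher in T and NK cells. The call in tumor and biliary cells was lost with the stricter gate (log2 ratio 0.16, -0.92 to 1.12; 54 and 11 UMIs). Monocytes had 20.7 CPM (15.7 to 26.8; 58 UMIs) and 104 CPM (90.0 to 119; 210 UMIs), a ratio of 4.99 (3.72 to 6.80). Kupffer cells had 15.7 and 48.8 CPM (ratio 3.11), macrophages 20.2 and 55.4 CPM (ratio 2.74, 2.46 to 3.05) and tumor and biliary cells 30.6 and 61.3 CPM (ratio 2.00, 1.63 to 2.46). T and NK cells had the highest levels in both libraries. In T cells *Socs1* was at 135 and 118 CPM (ratio 0.878, 0.820 to 0.940; log2 ratio 0.01 when scaled by the median of ratios), and in NK cells at 145 and 121 CPM (ratio 0.838, 0.679 to 1.04). CD8 T cells had 107 and 108 CPM (ratio 1.00), while their *Ifng* ratio was 5.20 and their *Irf1* ratio 1.59.

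Genes of the stress response to tissue dissociation were also higher in most classes with anti–PD-1. Of 14 such genes, 12 were at least 2-fold higher in CAFs (median log2 ratio 2.13) and 10 in tumor and biliary cells (1.77). The count was 9 in macrophages (1.38), 9 in Kupffer cells (1.17), 5 in T cells (0.68) and 3 in neutrophils (0.26, with 2 at least 2-fold lower). Per thinned cell, a median of 2 and 5 of the 14 were detected in tumor and biliary cells, and of 3 and 7 in macrophages. *Irf1* was therefore compared between cells with like numbers of stress genes. In macrophages the ratio was 1.77 (0.468 to 4.79) with 0 to 1 stress genes, where 26 anti–PD-1 cells were left, and 3.06, 2.81 and 3.75 with 2 to 3, 4 to 5 and 6 to 14.

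In tumor and biliary cells, the *Irf1* level increased with the number of stress genes in each library. The ratio was 1.24 (0.135 to 5.58; 12 and 2 UMIs) with 0 to 1 stress genes, and 3.16 (1.60 to 6.24), 2.18 (1.10 to 4.62) and 2.57 (1.33 to 5.57) in the higher strata. Weighting the strata equally gave a log2 ratio of 1.29 in place of 2.93 in tumor and biliary cells. It gave 1.63 in place of 1.98 in macrophages, and left the log2 ratio at 0.77 in T cells. The strata held thinned cells and the replaced values did not, so these changes combine thinning with weighting. The stratum of 12 and 2 UMIs weighed as much as each of the others. The comparison by strata was added after the values were seen. The part of dissociation stress in the *Irf1* difference was not tested further.

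**Figure D5:**
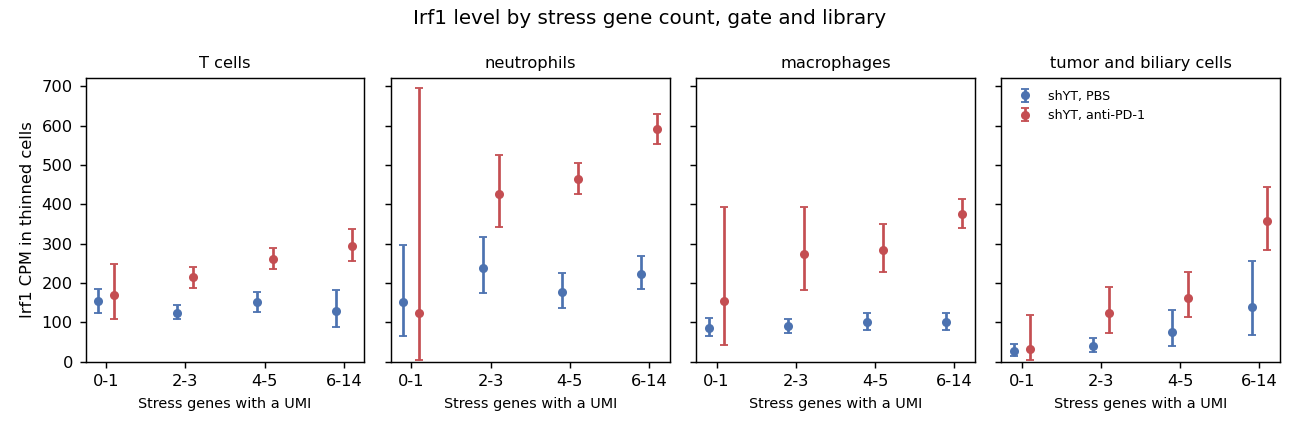
*Irf1* level after thinning (CPM) in cells grouped by how many of 14 stress genes were detected, for T cells, neutrophils, macrophages and tumor and biliary cells in both libraries, with exact Poisson 95% intervals. In tumor and biliary cells the anti–PD-1 level is 32.8 CPM with 0 to 1 stress genes and 357 CPM with 6 to 14.

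RNA of immune cells in the tumor gate also differed between libraries. The summed level of 6 neutrophil markers in tumor and biliary cells was 133 and 523 CPM, of 6 Kupffer cell markers 110.1 and 381 CPM, of 6 macrophage markers 276 and 469.7 CPM, of 6 T cell markers 87.8 and 171 CPM and of 6 NK markers 21.5 and 32.4 CPM, with all 6 markers of each list detected. Their own 6 epithelial markers stood at 5561 and 4887 CPM. Tumor and biliary cells without a UMI of any of 78 immune markers numbered 123 and 25. In those, *Irf1* had 6 and 4 UMIs, 32.7 and 132 CPM (ratio 4.04, 0.838 to 17.0), and *Socs1* 9 and 1 UMIs (ratio 0.673, 0.0153 to 4.86). The *Irf1* and *Socs1* differences were not detectable at this depth in these cells. The induced chemokine genes *Cxcl9*, with 1 and 23 UMIs (ratio 139, 22.6 to 5737), and *Cxcl10*, with 3 and 10 UMIs (ratio 20.2, 5.20 to 114), were higher in them, and the GTPase gene *Gbp2* had 2 and 2 UMIs (ratio 6.06, 0.439 to 83.5).

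Genes that IFN-γ induces were at least 2-fold higher more often in tumor and biliary cells, myeloid classes and CAFs than in lymphocytes. Of 20 measured genes of that list, 18 were at least 2-fold higher in tumor and biliary cells (median log2 ratio 2.52, against -0.05 for all genes), 17 in monocytes (1.53), 16 in Kupffer cells (1.61), 15 in macrophages (1.41) and 12 in neutrophils (1.27). In CAFs, with 503 and 196 cells, 13 of 19 were (1.43). In T cells, 4 were (median 0.21), in B cells 3 (0.35), and in NK cells 4 of 19 (0.24), and none was 2-fold lower in any of these classes. Genes that the factor NF-κB induces were also higher. Of 8, 6 were at least 2-fold higher in tumor and biliary cells and 5 each in macrophages, Kupffer cells, monocytes and CAFs. In neutrophils and NK cells 4 were, in T cells 3 and in B cells 2. The part of NF-κB in these differences was not tested. The chemokine gene *Cxcl9* stood out in tumor and biliary cells, with 8.51 and 589 CPM (ratio 69.2, 53.2 to 91.8), before *Iigp1*, a GTPase gene of cell-autonomous immunity, with 12.7 and 300.0 CPM (ratio 23.6). The smallest ratio there was that of *B2m*, the light chain gene of MHC class I, with 2414 and 4547 CPM (ratio 1.88). In monocytes *Iigp1* had 6.79 and 334 CPM (ratio 49.1, 31.2 to 82.1), and in Kupffer cells *Cxcl10* had 16.0 and 304 CPM (ratio 19.0). Of the T and NK activation and effector list, 16 of 20 genes were at least 2-fold higher in Kupffer cells and 13 of 20 in macrophages. It was 11 of 20 in neutrophils, 9 of 16 in monocytes, 13 of 17 in tumor and biliary cells and 11 of 14 in CAFs. In T cells 7 of 20 were, in NK cells 5 of 18 and in B cells 7 of 18. *Tcf7* of this list was at least 2-fold lower in Kupffer cells and monocytes (ratios 0.409 and 0.388). The part of RNA from other cells in these gates was not tested.

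Other genes of the pathway were at least 2-fold higher most often in tumor and biliary cells. Of 16 measured, 7 were at least 2-fold higher in tumor and biliary cells (median log2 ratio 0.76), 5 in macrophages (0.37), 5 in monocytes (0.34), 4 in Kupffer cells (0.40), 3 in neutrophils (0.07) and 1 in T cells (0.12), with 0 lower in each. *Socs3*, a relative of *Socs1* that restrains interleukin-6 signaling, had 21.1 and 128 CPM in tumor and biliary cells (ratio 6.09) but 289.8 and 216 CPM in neutrophils (ratio 0.745, 0.681 to 0.816). *Cish*, an inhibitor induced by cytokines such as interleukin-2, had 7.93 and 30.9 CPM in macrophages (ratio 3.90, next to the interferon-induced protease gene *Usp18* with 4.03) but 114 and 66.1 CPM in CD8 T cells (ratio 0.579, 0.505 to 0.663) and 136 and 70.1 CPM in NK cells (ratio 0.517). *Irf8*, an interferon regulatory factor, had 223 and 844 CPM in NK cells (ratio 3.78) and 11.4 and 50.7 CPM in tumor and biliary cells (ratio 4.47). *Ptpn11*, a phosphatase gene, had the lowest ratio of the list in tumor and biliary cells, with 73.3 and 52.8 CPM (ratio 0.720), and in neutrophils, with 52.2 and 37.9 CPM (ratio 0.727).

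Type I and type III interferon genes were barely detected. Of 9 such genes and their receptors, those measured in most classes were the 2 chains of the type I receptor, with no 2-fold difference. In macrophages *Ifnb1*, the interferon-β gene, had 11 and 38 UMIs, 0.368 and 2.75 CPM (ratio 7.48, 3.75 to 16.2).

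Over 16 sums of the 8 classes and 2 libraries, the genes most like *Ifng* among 16778 were *1810041H14Rik* and *Nkg7* (Pearson r of log2(CPM + 1), 0.98), then *Sytl3*, *Xcl1* and *Fasl* (0.97). Those most like *Irf1* were *Cd274* (0.93), then *Herc6*, *H2-T23* and *Csrnp1* (0.90). For *Socs1* they were *Cish* (0.91), *Sytl3* (0.89), *Cd27* and *Il12rb1* (0.88) and *Ifng* (0.87). Sums of 1 library share its depth and handling, so these are descriptions.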

How the data were processed

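Livers were digested and depleted of red cells, debris and dead cells, and single-cell libraries were made with the GEXSCOPE kit V2. The authors deposited whole-number UMI counts per gene and barcode on mm10, not normalized. Demultiplexing, alignment and counting were done with Cell Scope (Singleron), per the study's methods, whose version and counting settings are not given in the sources used here. The submitters' processing notes name Seurat 4.3. The counts were read as deposited with Python 3.11.15, numpy 2.4.6, scipy 1.17.1 and pandas 2.3.3, and plots were drawn with matplotlib 3.10.9.

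Kept cells had from 500 to 5000 genes detected, and no more than 10% of their UMIs were mitochondrial. No doublet caller was run. Counts were summed per library and gate and divided by the gate's total (CPM, with 1000000 as scale). Ratios use no pseudocount. CPM intervals are exact Poisson, shares exact Clopper-Pearson, and ratios exact conditional binomial, all at 95% and for counting error only. With 1 library per group, no test was run. Thinning drew 1000 UMIs per cell (seed 7) and left out shallower cells, 50 and 52 of the T cells and 193 and 203 of the tumor and biliary cells. Thinned shares of cells and stress strata kept the first gates. Where thinning was an alternative for log2 ratios and *Ifng* shares, the gates were redrawn on the thinned counts. The strict gate asked for at least 3 markers and at most 1 of any other class. The ratio and its interval were checked on simulated data.

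The 7 genes and all lists were chosen with earlier results of these data known. List genes are named from the highest or lowest ratios of their list in a class (up to 4, with at least 30 UMIs), *Cxcl10* and *Gbp2* in tumor cells without immune markers were named outside that rule, and genes of *Ifng*-positive cells were picked after their values were seen. *Ifng*, *Irf1* and *Socs1* also have the genes with the highest correlation (of 5 each), and 1 gene is not reported here. Gene positions came from GENCODE vM21, in which 32522 of 32589 gene IDs (99.79%) were found, and promoters from RefSeq, matched by symbol for 7 of 7. Alternatives were a mitochondrial limit of 20%, no upper gene limit, the strict gate, thinning, cells that held a Y-linked but no *Xist* transcript, scaling by the median of ratios and 5 CPM added. Equal stress strata, leaving out the 1 or 3 cells highest in *Ifng*, and tumor cells without an immune marker UMI were chosen after seeing the data.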

Additional observations from a re-analysis of the deposited data

Results flagged for a closer look

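4 of the genes had ratios of opposite sign in a pair of the main cell classes, with counting intervals that exclude 0 on both sides. Each class is 1 library per treatment, so the difference between classes was not tested. The log2 ratio (anti–PD-1 over PBS) of *Ifngr1*, the ligand-binding receptor chain, was 0.46 in NK cells and -0.74 in monocytes. That of *Ifngr2*, the signaling chain, was 0.76 in T cells and -0.97 in neutrophils. Within T cells, *Ifngr2* intervals overlapped between libraries in the CD8 gate, and RNA of myeloid and B cells was also higher in the CD4 gate. *Jak2* had 0.62 in monocytes and -0.84 in neutrophils. *Socs1*, the feedback inhibitor, had 2.32 in monocytes and -0.19 in T cells, where it was 0.01 when libraries were scaled by the median of ratios.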

How the results depend on the processing

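Log2 ratios and shares stayed within the counting interval of the reported value, and counts of pairs within 1.5 times, in 74 of 74 cases with a mitochondrial limit of 20%, 71 of 74 with no upper gene limit, 69 of 72 with 5 CPM added, 46 of 74 after thinning, 45 of 72 with scaling by the median of ratios, 40 of 72 with equal stress strata, 30 of 69 with the strict gate and 29 of 72 in cells that held a Y-linked but no *Xist* transcript. With no upper gene limit the *Irf1* log2 ratio of tumor and biliary cells was 3.19, and with 5 CPM added *Socs1* in macrophages was 1.26. The strict gate kept few cells (338 of 1381 anti–PD-1 CD8 T cells and 145 of 1661 macrophages). It gave log2 ratios of 1.01 for *Ifng* in CD8 and -0.33 in CD4 T cells, 0.66 and 2.12 for *Irf1* in T cells and macrophages, and 0.16 for *Socs1* in tumor and biliary cells. T and NK cells then held 30% and 8.63% of *Ifng* UMIs, and 7 member and class pairs were 2-fold higher and 1 lower. The number of pairs measured with this gate is not given here. Under it, *Ifngr1* (-0.02) and *Jak2* (-0.71) in tumor and biliary cells and *Jak1* in CD4 T cells (0.00) changed sign or lost it. Thinning gave *Ifng* 1.50 in NK and 1.10 in CD8 T cells, *Irf1* 2.06 in macrophages and 2.58 in tumor and biliary cells, *Socs1* -0.42 in T cells, and *Ifng* shares of T and NK cells of 72.6% and 64.1%. It reversed *Ifng* in tumor and biliary cells (-0.24) and *Ifngr1* (-0.10) and *Jak1* (-0.12) in CD4 T cells.

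Cells that held a Y-linked but no *Xist* transcript gave *Ifng* 3.20 in CD8 and 0.43 in CD4 T cells, *Irf1* 0.87 in T cells and 2.30 in macrophages, *Socs1* -0.43 in T cells and 1.58 in tumor and biliary cells, an *Ifng* share of 63.9% with PBS, and 2 pairs 2-fold lower. There *Ifngr1* in neutrophils (0.06) and CD8 T cells (-0.16) and *Ifngr2* in Kupffer cells (0.04) reversed. Equal stress strata gave *Ifng* 1.74 in CD8 T cells, *Irf1* 1.63 in macrophages and 1.29 in tumor and biliary cells, *Socs1* -0.35 in T cells and 0.94 in macrophages, and 9 pairs higher and 1 lower, and reversed *Ifng* in tumor and biliary cells (-0.09), *Ifngr1* in T cells (-0.01), *Ifngr2* in Kupffer cells (0.21) and *Jak1* in monocytes (0.03). Leaving out the highest cell or the highest 3 gave *Ifng* in CD8 T cells 1.92 and 1.66, and in all T cells 1.03 and 0.90. Tumor and biliary cells without immune marker UMIs gave *Irf1* 2.01 and *Socs1* -0.57, from 9 and 1 UMIs. Scaling by the median of ratios gave *Irf1* 0.97 in T cells and 2.17 in macrophages and *Socs1* 1.64 in macrophages, and reversed *Socs1* (0.01) and *Jak1* (0.14) in T cells and *Ifngr1* (0.04) and *Jak1* (0.07) in neutrophils. The causes of these changes were not tested. No paired analysis was possible because each group is 1 library, and no library could be left out.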
